A study of Mus musculus with 219 samples.

Results

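The genes described here are those of the mouse mitochondrial genome, found as every gene whose symbol begins with mt- in GENCODE mouse release 21. There were 37 of them among the 55487 gene identifiers of each count table. By class and annotated strand they were 12 protein genes on the plus strand, 1 protein gene on the minus strand (mt-Nd6), 2 ribosomal RNA (rRNA) genes on the plus strand, 14 transfer RNA (tRNA) genes on the plus strand and 8 tRNA genes on the minus strand. All 37 lie on the mitochondrial chromosome in that annotation.

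Mitochondrial DNA is a small circle, present in many copies per cell, that is transcribed on both strands into long RNAs which are then cut, largely at the tRNAs that punctuate them. Its protein genes encode subunits of the respiratory chain: the mt-Nd genes belong to complex I, mt-Cytb to complex III, mt-Co1 to mt-Co3 to complex IV, and mt-Atp6 and mt-Atp8 to ATP synthase. The rRNAs mt-Rnr1 and mt-Rnr2 build the mitochondrial ribosome, and the tRNAs carry amino acids for it. Neurons depend heavily on this energy supply. Pieces of mitochondrial DNA have also been inserted into nuclear chromosomes, and a long, nearly identical piece lies on mouse chromosome 1.

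A read from such a stretch can match the gene and its copy equally well, so windows of 3 genes are shown first beside their nuclear copies (mm10, each 5′ to 3′ on the RNA strand; annotation from GENCODE). The windows are chrM:7023-7082, chrM:9459-9518 and chrM:6390-6449 on the plus strand, and on the minus strand chr1:24615496-24615555, chr2:22587893-22587952, chr1:24613060-24613119 and chr1:24616129-24616188. Capitals mark the bases that differ between a gene and a copy.
mt-Co2: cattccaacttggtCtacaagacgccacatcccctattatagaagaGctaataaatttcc
Gm28661: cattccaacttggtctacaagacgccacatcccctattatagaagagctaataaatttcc
Gm13341: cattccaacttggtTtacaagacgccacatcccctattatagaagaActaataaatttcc
mt-Nd3: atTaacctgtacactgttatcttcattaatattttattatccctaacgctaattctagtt
Gm28438: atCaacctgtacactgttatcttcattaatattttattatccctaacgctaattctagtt
mt-Co1: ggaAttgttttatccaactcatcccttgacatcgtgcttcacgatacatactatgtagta
Gm29216: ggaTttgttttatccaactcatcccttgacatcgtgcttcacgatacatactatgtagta
The chromosome 1 copy of mt-Co2, Gm28661, had 0 differences in its window, while the chromosome 2 copy, Gm13341, had 2. The copies of mt-Nd3 and mt-Co1 differed at 1 base each in theirs.

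Neighbouring mitochondrial genes also overlap, and 5 stretches are shown because the results below turn on these genes or on reads they share. Capitals mark the start codon of mt-Atp6 in the first (chrM:7927-7969), the bases that mt-Nd4l shares with mt-Nd4 in the next (chrM:10144-10173), and the anticodon in the tRNAs mt-Ti (isoleucine, chrM:3706-3774, plus strand), mt-Tw (tryptophan, chrM:4950-5016, plus strand) and mt-Tp (proline, chrM:15356-15422, minus strand).
mt-Atp8/mt-Atp6 overlap: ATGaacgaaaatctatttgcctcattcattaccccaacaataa
mt-Nd4l/mt-Nd4 overlap: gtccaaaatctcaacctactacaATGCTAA
mt-Ti: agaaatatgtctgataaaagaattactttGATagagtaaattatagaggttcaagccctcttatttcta
mt-Tw: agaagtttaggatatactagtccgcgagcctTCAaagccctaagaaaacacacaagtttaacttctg
mt-Tp: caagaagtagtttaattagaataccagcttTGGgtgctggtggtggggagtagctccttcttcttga
mt-Atp8 and mt-Atp6 share 43 bases, mt-Nd4l and mt-Nd4 share 7, mt-Nd1 and mt-Ti share 2, and mt-Nd2 and mt-Tw share 2. On opposite strands, mt-Nd5 and mt-Nd6 share 14 bases, mt-Ti and mt-Tq share 3, and mt-Co1 and mt-Ts1 share 3. The libraries were made with a directional kit. The strand setting of the counting is not given in the sources used here, so reads from opposite strands at these overlaps, and antisense reads in general, may not be separated.

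The RNA came from the left prefrontal cortex, with rRNA depleted before sequencing. Every mouse of the daily atlas was wild type (WT/WT, Snord116+/+Ctg-/-), housed in its home cage on 12:12 (a cycle with 12 h light, 12 h dark), and collected in it at about 12 weeks of age, at 1 of 8 zeitgeber times (ZT, hours after lights on) 3 h apart from ZT0 to ZT21. The atlas has 92 libraries in 16 groups of sex and time, 12 groups of 6 and 4 groups of 5. The other table has 126 libraries, all from ZT6, in 32 groups of set, sex, light cycle and genotype, 30 groups of 4 and 2 groups of 3. Its genotypes were WT/WT as in the atlas, HET/WT with 1 Snord116 allele lost (Snord116+/-Ctg-/-), WT/TG with the transgene written Ctg (Snord116+/+Ctg+/-) and HET/TG with both (Snord116+/-Ctg+/-). The sources used here do not give the transgene's driver or the cells that express it. These mice entered light-controlled incubators at about 8 weeks, had 7 days to acclimate and were then entrained for 22 days at 22 °C to 12:12 or to 11:11 (11 h light, 11 h dark). The RW set had running wheels for the last 7 days and was collected in its light cycle (L:D), and the CLAMS set was moved to calorimetry chambers, with collection under constant darkness (D:D). Set and light at collection therefore cannot be told apart. The prefixes of the library names also follow set and sex, so any batch they mark cannot be told apart from those factors. One RW male on 12:12 with the WT/TG genotype was not analysed here.

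Libraries held 12995491 to 18420258 counts in the atlas and 12737699 to 29856536 at ZT6. Markers of other tissue moved with set and sex at ZT6: the 5 blood genes summed to a median of 199.3 CPM (counts-per-million of the library) in CLAMS males against 85.6 in CLAMS females, 63.7 in RW females and 83.2 in RW males. The 5 oligodendrocyte genes were also highest in CLAMS males, at 5252 CPM against 3576, 3332 and 3381. The 6 striatal genes differed by sex in the atlas, with medians of 460.3 CPM in females and 135.3 CPM in males. Every member of these marker lists passed the filter and none was at 0. Snhg14, the host transcript that contains Snord116, was lower in HET/WT than in WT/WT by a log2 difference of -2.42 ± 0.09 (SE). The library labelled RW female 11:11 HET/WT replicate 3 had 169.5 CPM of Snhg14 against a HET/WT median of 32.9 CPM, which goes against its label. RW female 11:11 WT/TG replicate 1 stood apart with 40.3% of its counts in nuclear rRNA genes, and CLAMS male 11:11 HET/TG replicate 4 with 34.1% in mitochondrial genes. Calls lost without 1 of these 3 libraries are given with both values.

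The mitochondrial genes gave a median of 17% of all counts in the atlas (lowest 9.30%, highest 22.7%, n = 92) and 11.8% at ZT6 (5.05% to 34.1%, n = 126). Most of it was rRNA. Of the counts summed over the 37 genes in the atlas, 85.1% came from the rRNAs, 14.7% from the plus-strand protein genes, 0.181% from mt-Nd6, 0.0107% from the plus-strand tRNAs and 0.00465% from the minus-strand tRNAs. At ZT6 the same shares were 85.8%, 14.1%, 0.172%, 0.0168% and 0.00804%. The rRNA share is what remained after rRNA depletion, and whether the depletion probes cover mt-Rnr1 and mt-Rnr2 is not given in the sources used here.

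Levels of different genes are compared per length, as counts-per-million of the raw library total divided by gene length in kilobases (RPKM). On that scale the rRNAs led in the atlas, mt-Rnr1 with a median of 70259 and mt-Rnr2 with 48699. mt-Co1, the catalytic core subunit of complex IV, led the protein genes at 5738, followed by mt-Cytb at 4078, mt-Nd1 at 3626, mt-Nd2 at 2652, mt-Nd5 at 1775 and mt-Nd4 at 1532. mt-Nd6, the only protein gene on the minus strand, had 590.5. At ZT6 the order was the same except for mt-Rnr1 and mt-Rnr2: 31839 for mt-Rnr1, 44494 for mt-Rnr2, 5886 for mt-Co1, 2208 for mt-Cytb, 2077 for mt-Nd1, 1053 for mt-Nd2, 913 for mt-Nd5, 467 for mt-Nd4 and 430.4 for mt-Nd6. The ratio of mt-Rnr2 to mt-Rnr1 counts had a median of 1.15 in the atlas (0.994 to 1.92) and 2.37 at ZT6 (1.13 to 3.57), so the ranges overlapped. The 2 tables were not tested against each other.

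The other 6 protein genes were far lower, and they are the ones that lie wholly inside the stretch copied on chromosome 1. Their medians in the atlas were 8.80 for mt-Co2, 8.21 for mt-Co3, 7.23 for mt-Atp6, 3.09 for mt-Nd3, 1.73 for mt-Atp8 and 1.65 RPKM for mt-Nd4l. At ZT6 they were 12.6, 12.6, 7.92, 2.43, 0.300 and 0.662. In both tables the medians of the 6 genes inside the stretch did not reach the lowest median of the 5 protein genes outside it, that of mt-Nd6. Over single libraries at ZT6 the ranges overlapped: mt-Nd6 fell to 29.6, while mt-Co2 reached 38.8 and mt-Co3 37.5. The 6 gave 0.0115% of all mitochondrial counts in the atlas and 0.0231% at ZT6, the 5 outside gave 8.46% and 5.97%, and the 2 partly inside (mt-Co1 with 31.3% of its length, mt-Nd4 with 63.6%) gave 6.43% and 8.23%. The part of the nuclear copy in these levels was not tested.

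The tRNAs were sparsely counted. mt-Tw was the highest, with a median of 183 RPKM in the atlas and 247 at ZT6. It was followed in the atlas by mt-Tp at 73.1, mt-Tm (methionine) at 44.9, mt-Tq (glutamine) at 26, mt-Ti at 23.4, mt-Tt (threonine) at 13.5 and mt-Te (glutamate) at 7.11. At ZT6 mt-Tp had 77.3, mt-Tq 45, mt-Ti 15.2, mt-Tm 14.2, mt-Te 10.1 and mt-Tt 7.74. mt-Ti, mt-Tq, mt-Tm and mt-Tw, which flank mt-Nd2, thus spanned from 14.2 to 247 at ZT6.

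**Figure D1:**
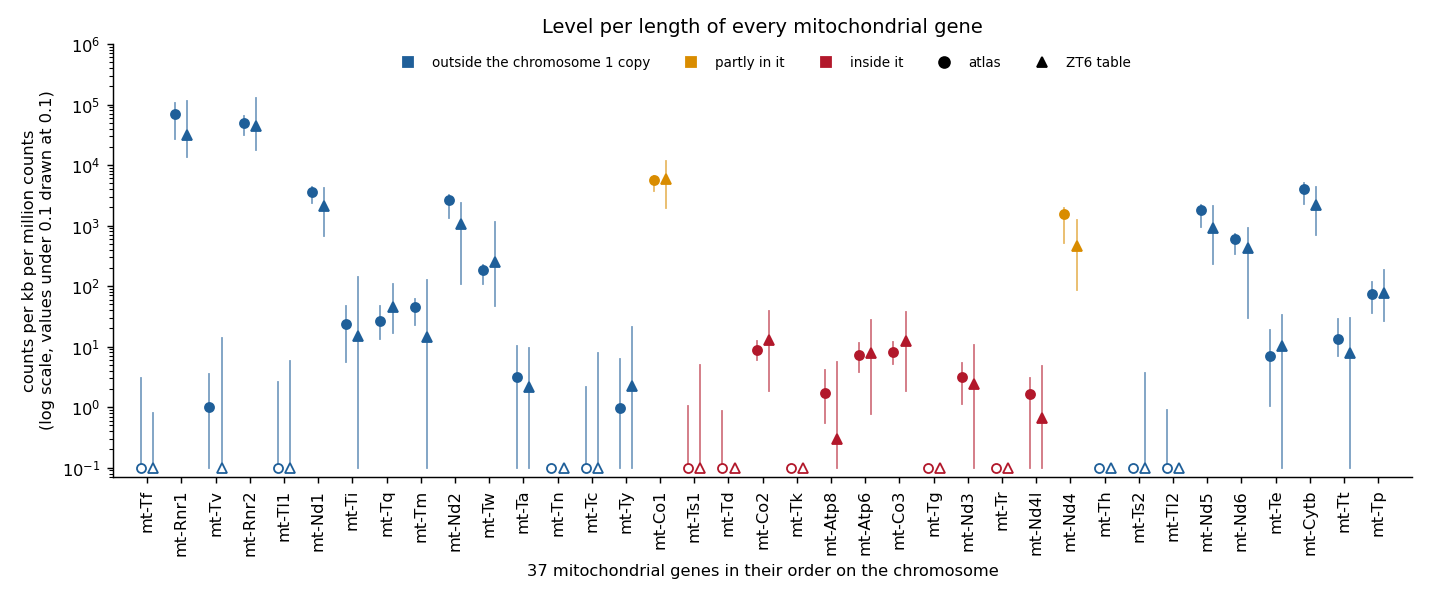
Median (symbol) and range (line) over libraries of RPKM on a log scale, for the 37 mitochondrial genes in chromosome order, in the atlas (circles, 92 libraries) and at ZT6 (triangles, 126 libraries). Colours give the place relative to the chromosome 1 copy (blue outside, orange partly inside, red wholly inside), and open symbols are values under 0.1 drawn at 0.1. Medians of the red protein genes sit between 0.300 and 12.6, while those of the blue protein genes start at 430.4. The ranges of mt-Nd6 and mt-Co2 overlap at ZT6.

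The expression filter passed 22 of the 37 genes in each table: 13 protein genes, both rRNAs and 7 tRNAs of the 17193 genes tested in the atlas, and 12 protein genes, both rRNAs and 8 tRNAs of 18841 at ZT6. mt-Atp8 passed only in the atlas and mt-Ty (tyrosine) only at ZT6. In the other table mt-Ty had 127 counts summed over all atlas libraries. The genes that passed in neither table were mt-Ta (alanine, 347 counts in the atlas and 372 at ZT6), mt-Tv (valine, 114 and 142), mt-Tl1 (leucine, 29 and 29), mt-Tc (cysteine, 11 and 41), mt-Ts1 (serine, 6 and 50), mt-Tf (phenylalanine, 4 and 1), mt-Ts2 (serine, 0 and 4), mt-Td (aspartate, 1 and 0) and mt-Tl2 (leucine, 1 and 0). The 5 tRNA genes mt-Tn, mt-Tk, mt-Tg, mt-Tr and mt-Th (asparagine, lysine, glycine, arginine and histidine) were at 0 in all libraries of both tables, and the other 32 genes had a count in at least 1 library. A count of 0 allows up to 0.00213 CPM over the atlas and 0.00134 CPM over the ZT6 table (3 counts over all libraries, for counting error only).

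The nuclear stretch runs from 6390 to 11042 on the mitochondrial chromosome (4653 bases, from within mt-Co1 to within mt-Nd4) and from 24611535 to 24616188 on chromosome 1 (4654 bases, minus strand, mm10). It holds 7 annotated pseudogenes, and over 4140 aligned bases they had 2 mismatches to the mitochondrial genes. mt-Co2 matched Gm28661 over 681 bases, mt-Atp6 matched Gm10925 over 678 and mt-Co3 matched Gm28437 over 783, each at 100% identity. mt-Nd3 differed from Gm28438 at 1 of 345 bases. mt-Co1 is also copied over its whole 1545 bases on chromosome 2 (Gm13340), at 97.6% identity. These values describe the annotated transcripts, of which 17 gene and copy pairs aligned over at least 100 bases at 90% identity or more.

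Counts of the matched genes and copies followed each other. In CLAMS females mt-Co2 had 10243 counts and Gm28661 12286; in RW females they had 1113 and 1507. Across the 6 groups of set and sex (atlas included), the copy took 49.7% to 57.5% of the counts of mt-Co2 and Gm28661 together, 49.2% to 54.2% for mt-Co3 and Gm28437, and 49.1% to 72.9% for mt-Atp6 and Gm10925. The share was 30.4% to 47.8% for mt-Nd3 and 51.5% to 60.5% for mt-Nd4l. For mt-Co1, most of which lies outside the stretch, Gm29216 took 0.0244% to 0.0893%, and for mt-Nd4 Gm28439 took 0.145% to 0.667%. Summed over both tables, Gm28437 had 36060 counts, Gm28661 35720 and Gm10925 30659. The sources used here do not give the counter or how it treats reads that match more than 1 place, so counts of mt-Co2, mt-Co3, mt-Atp6, mt-Atp8, mt-Nd3 and mt-Nd4l are uncertain throughout.

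**Figure D2:**
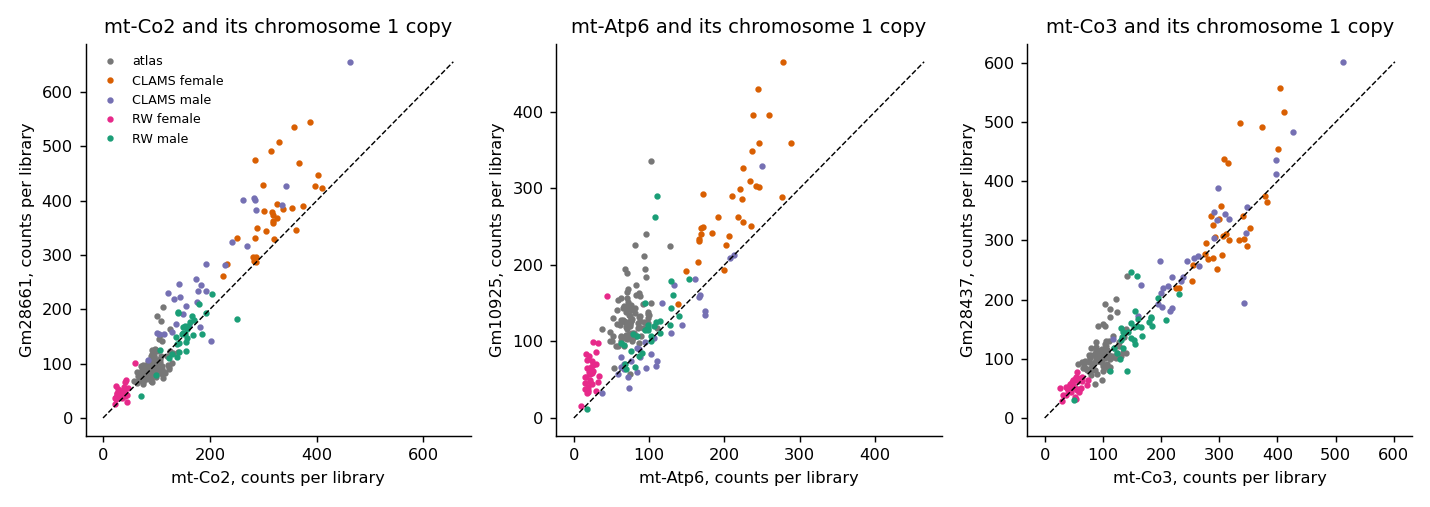
Counts of mt-Co2, mt-Atp6 and mt-Co3 in each library against those of their chromosome 1 copies Gm28661, Gm10925 and Gm28437, with the line of equal counts. Gene and copy rise together; points lie near the line for mt-Co2 and mt-Co3 (copy share 49.2% to 57.5% by set and sex) and more often above it for mt-Atp6 (49.1% to 72.9%).

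Over the day, 9 of the 22 genes tested in the atlas had a 24 h rhythm (edgeR's quasi-likelihood test, Benjamini-Hochberg adjusted p under 0.05), beside 41.4% of all genes tested. They were 4 of 13 protein genes (mt-Nd1, mt-Nd5, mt-Nd6 and mt-Co3), neither rRNA, and 5 of 7 tRNAs (mt-Ti, mt-Tq, mt-Tw, mt-Te and mt-Tp). By strand they were all 4 minus-strand genes tested and 5 of 18 plus-strand genes. That split rests on calls that changed with the fit, as given below. The difference from peak to trough was small, with a median log2 value of 0.16 over the 22 genes and 0.14 over all genes tested. In bulk tissue, fewer cells of a type and less RNA per cell cannot be told apart, here and in each comparison that follows.

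mt-Nd1, a complex I subunit that sits in the membrane, had 3010, 3683 and 4283 CPM (lowest, median and highest) at ZT6 (n = 12) and 2693, 3246 and 3643 CPM at ZT18 (n = 10). The day values were higher in the median, and the ranges overlapped. Its peak-to-trough difference was 0.16 ± 0.04 on the log2 scale (SE), a fold of 1.12, with a peak at ZT6.59 and an adjusted p of 0.00259. mt-Nd6 went from 280.0, 329.5 and 386.5 CPM at ZT6 to 247.9, 286 and 319.9 at ZT18. Its difference was 0.16 ± 0.05, peaking at ZT7.47 (adjusted p = 0.0131), and again the ranges overlapped. mt-Nd5 differed by 0.15 ± 0.05 with a peak at ZT6.40 (adjusted p = 0.0431) and mt-Co3, whose reads can match its copy, by 0.21 ± 0.07 at ZT7.93 (adjusted p = 0.0453).

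Among the tRNAs mt-Ti had the opposite phase, with 0.986, 1.89 and 2.87 CPM at ZT18 and 0.606, 1.20 and 2.34 at ZT9 (n = 12). Night values were higher in the median and the ranges overlapped. The peak-to-trough difference of mt-Ti was 0.50 ± 0.12 (a fold of 1.41) at ZT20.1, with an adjusted p of 0.00194. The other called tRNAs peaked in the light: mt-Tp by 0.26 ± 0.08 at ZT6.05 (adjusted p = 0.0145), mt-Tq by 0.30 ± 0.10 at ZT5.88 (0.0369), mt-Tw by 0.15 ± 0.05 at ZT2.95 (0.0333) and mt-Te by 0.56 ± 0.18 at ZT3.94 (0.0288). Of the genes that did not pass, mt-Co1 had 0.09 (adjusted p = 0.0509), mt-Atp6 0.21 (0.0793), mt-Co2 0.16 (0.159), mt-Cytb 0.10 (0.207), mt-Nd2 0.10 (0.281), mt-Rnr1 0.10 (0.634) and mt-Rnr2 0.07 (0.623).

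Several of these calls were close to the threshold, and 1 of the 9 passed in every fit that left out a replicate number. The count of called genes was between 2 and 7 when replicate numbers were omitted one by one, with 2 without replicate 5, 4 without replicate 4 and 5 without replicate 3. mt-Nd1 passed in all 6 of those fits, mt-Ti in 5 and mt-Nd6 in 4. mt-Tw and mt-Tp passed in 3, mt-Tq, mt-Te and mt-Co3 in 2 and mt-Nd5 in 1. With time as 8 separate levels 3 genes passed, and without the expression filter 4. The minus-strand genes mt-Nd6, mt-Tq and mt-Tp did not pass with 8 levels (adjusted p = 0.126, 0.142 and 0.134). The test of a sex difference in the rhythm called 0 of 22 genes in edgeR and 0 in DESeq2, beside 0.0756% of all genes. At an unadjusted p under 0.05 it was 1 gene, mt-Nd6 (of 1334 over all genes).

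**Figure D3:**
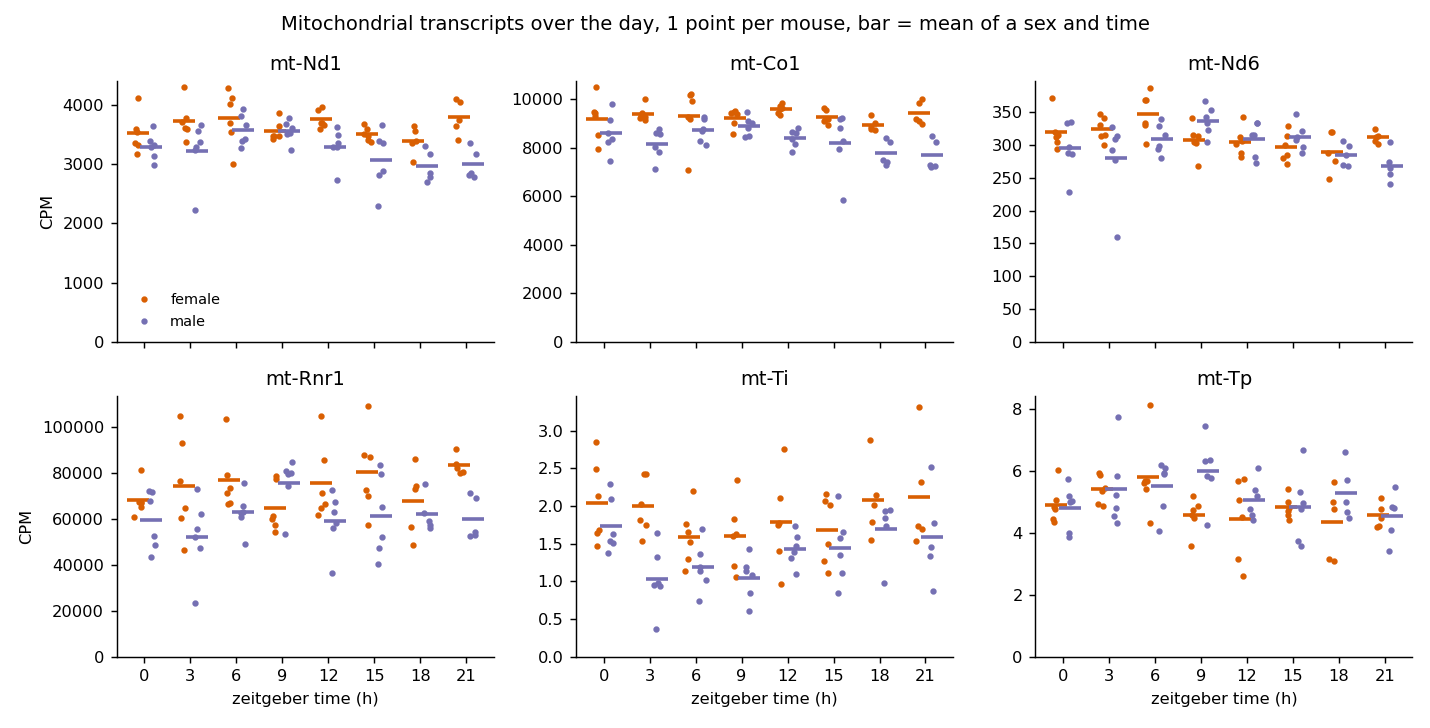
CPM of mt-Nd1, mt-Co1, mt-Nd6, mt-Rnr1, mt-Ti and mt-Tp by zeitgeber time in the atlas; each point is 1 mouse, coloured by sex, and bars are means by sex. The medians of mt-Nd1 and mt-Nd6 are higher at ZT6 (3683 and 329.5 CPM) than at ZT18 (3246 and 286 CPM), that of mt-Ti is higher at ZT18 (1.89 CPM) than at ZT9 (1.20 CPM), and the points of these times overlap.

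By sex, 13 of 22 genes differed between males and females, beside 41.1% of all genes tested. Of these, 12 were lower in males (beside 20.1% of all genes) and 1, mt-Tt, was higher (beside 21% of all genes). The 12 were 9 plus-strand protein genes, both rRNAs and mt-Ti. mt-Nd6 and the 3 minus-strand tRNAs did not pass.

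mt-Cytb, the only mitochondrially encoded subunit of complex III, had 3839.6, 5053 and 6045 CPM in females (n = 46) and 2356, 4369 and 4908 in males (n = 46). All 46 males lay below the female median, although the ranges overlapped. The log2 difference, males minus females, was -0.25 ± 0.03 with an adjusted p of 4.29e-10. mt-Co1 had 7082, 9327 and 10519 CPM in females and 5837, 8419.8 and 9799 in males, with 44 of 46 males below the female median. Its difference was -0.16 ± 0.02 (adjusted p = 8.18e-09). The other complex I genes called were mt-Nd4 at -0.25, mt-Nd5 at -0.24, mt-Nd2 at -0.20, mt-Nd1 at -0.16 and mt-Nd4l at -0.32.

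mt-Rnr1 was lower in males by a log2 difference of -0.26 ± 0.07 (adjusted p = 0.000564), with 34 of 46 males below the female median. mt-Rnr2 had -0.18, mt-Atp6 -0.18 and mt-Co2 -0.15. mt-Ti had 0.968, 1.76 and 3.31 CPM in females and 0.368, 1.37 and 2.52 in males, a difference of -0.42 ± 0.08 (adjusted p = 1.81e-05) with 38 of 46 males below the female median. mt-Tt was higher in males by 0.26 ± 0.09 (adjusted p = 0.0191). mt-Nd6 had 247.9, 312.9 and 386.5 CPM in females and 159.7, 305.3 and 367.3 in males, a difference of -0.06 ± 0.03 that did not pass (adjusted p = 0.111). Of the 13 genes, 10 passed in all 6 fits that left out a replicate number. The share of counts in nuclear rRNA genes, a sign of depletion, had medians of 1.44% in females and 0.841% in males, and the striatal markers differed as given above. Their part in the sex difference was not tested.

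No mitochondrial gene was called for genotype at ZT6. HET/WT against WT/WT called 0 of 22 genes (beside 0.0425% of all genes), WT/TG against WT/WT 0 (0.0159%), HET/TG against WT/WT 0 (0.0478%) and HET/TG against HET/WT 0 (0.0106%). DESeq2 also called 0 in each. At an unadjusted p under 0.05, 1 gene passed in HET/TG against WT/WT (of 1144 over all genes), which was mt-Tw with a log2 difference of 0.21 ± 0.09. In the other 3 comparisons it was 0 (of 1206 for HET/WT, 803 for WT/TG and 1319 for HET/TG against HET/WT).

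mt-Nd6 had 14.3, 207.3 and 464.8 CPM in WT/WT (n = 32), 37.2, 242.6 and 349.2 in HET/WT (n = 32), 22.6, 239 and 616 in WT/TG (n = 30) and 42, 215.7 and 314.4 in HET/TG (n = 32). The 4 ranges overlapped widely. Its difference in HET/WT against WT/WT was 0.04 ± 0.14, and those of the better counted genes were as small: 0.03 ± 0.11 for mt-Rnr1, 0.00 ± 0.09 for mt-Rnr2, -0.03 ± 0.07 for mt-Co1 and 0.01 ± 0.10 for mt-Cytb. The median of mt-Co1 was 9086 CPM in WT/WT, 9413 in HET/WT, 9180.3 in WT/TG and 8793 in HET/TG.

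Split by light cycle, HET/WT against WT/WT had differences of opposite sign that did not pass. On 11:11 the median log2 difference over the 22 genes was 0.21 and 0 were called (beside 0.0212% of all genes). At an unadjusted p under 0.05 there were 2 of the 22, beside 1034 of all 18841 genes tested. On 12:12 the median was -0.19 and 0 were called (beside 0.0265%), with 2 of the 22 unadjusted, beside 1489 of all 18841 genes. mt-Nd6 was at 0.45 ± 0.19 on 11:11 (adjusted p = 0.896) and at -0.36 ± 0.19 on 12:12 (0.661). mt-Co1 was at 0.18 ± 0.11 and -0.24 ± 0.11 (0.902 and 0.565). The difference between these effects, tested directly, called 0 of 22 genes (beside 0% of all genes). Unadjusted there were 10 of the 22, beside 1331 of all 18841 genes. The 22 are transcribed together and are not independent of each other. The difference was 0.80 ± 0.27 for mt-Nd6 (adjusted p = 0.49), 0.42 ± 0.15 for mt-Co1 (0.543) and 0.61 ± 0.28 for mt-Nd2 (0.669). Its median was 0.41 over the 22 genes.

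Without the expression filter 30 mitochondrial genes were tested. HET/WT against WT/WT then called 9 of them on 11:11, all higher (126 over all genes), 8 on 12:12, all lower (96 over all genes), and 10 in the difference, all higher (106 over all genes). HET/TG called 2 (mt-Tw higher and mt-Nd6 lower, of 84 over all genes), HET/TG against HET/WT called 1 (mt-Nd6, of 119), and the average effects of HET/WT and WT/TG again called 0. The cause was not tested. DESeq2 called 0 mitochondrial genes in each of these comparisons.

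On 11:11 against 12:12, 3 of 22 genes were higher, averaged over set, sex and genotype, beside 12.6% of all genes called (7.49% higher and 5.15% lower). They were the complex I genes mt-Nd2 (log2 difference 0.32 ± 0.10, adjusted p = 0.0218), mt-Nd4l (0.64 ± 0.19, 0.0153) and mt-Nd5 (0.24 ± 0.08, 0.0425). mt-Nd5 did not pass without the rRNA-rich library (0.21, adjusted p = 0.0807) or without the library richest in mitochondrial counts (0.22, 0.0575), nor with RLE scaling (0.23, 0.0506), scaling on nuclear genes (0.23, 0.0501) or the nuclear rRNA covariate (0.23, 0.0552). mt-Nd4l had a median of only 4 counts per library. It did not pass without the expression filter (0.64, 0.0737) or in 2 of the 4 fits that left out a replicate number (0.42 to 0.79). mt-Nd2 passed in 1 of those 4 and mt-Nd5 in 1. Without the library that goes against its label 5 genes passed, and omitting the replicate numbers one by one gave 0 to 6.

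For the CLAMS groups of the same fit, 5 genes were higher on 11:11 (beside 19.6% of all genes called, 10.4% higher and 9.13% lower): mt-Nd2 by 0.51 ± 0.14 (adjusted p = 0.00629), mt-Atp6 by 0.40 (0.00132), mt-Co2 by 0.31 (0.00508), mt-Nd4l by 1.25 (0.000455) and mt-Nd6 by 0.44 (0.0152). Only mt-Nd4l passed in all 4 fits that left out a replicate number. mt-Co2 and mt-Atp6 passed in 3 of them, mt-Nd2 in 2 and mt-Nd6 in 1. The size for mt-Nd4l is uncertain, as it rests on few reads. CLAMS males had 37 counts in 15 libraries on 11:11 and 8 in 16 on 12:12. CLAMS females had 223 in 16 and 176 in 16. In the RW set 0 of 22 were called by edgeR and 0 by DESeq2 (beside 0.069% of all genes). At an unadjusted p under 0.05 it was 1 (of 1405 over all genes). Without the expression filter 6 were called (of 208 over all genes). The difference of the effect between sets, tested directly, passed for 1 gene, mt-Nd4l (1.22 ± 0.38, adjusted p = 0.0406; beside 5.32% of all genes, 2.74% higher and 2.58% lower). That call was lost with the nuclear rRNA share as a covariate (1.16, adjusted p = 0.0649), without the expression filter (1.23, 0.139) and in all but 1 of the 4 fits that left out a replicate number (0.89 to 1.55, highest adjusted p 0.308). For the other genes the effects in the sets were not shown to differ.

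On 11:11 the CLAMS males had 9 of 22 genes higher (beside 13.5% of all genes called, 7.18% higher and 6.33% lower). mt-Nd6 had 66.8, 133.2 and 287.1 CPM on 11:11 (n = 15) and 22.6, 54.0 and 294.5 on 12:12 (n = 16). All 15 males on 11:11 lay above the 12:12 median, although the ranges overlapped through a high 12:12 library. The log2 difference was 1.11 ± 0.20 with an adjusted p of 4.12e-05. mt-Nd2 had 151.1, 428.3 and 1057 CPM on 11:11 and 115.9, 230.2 and 683.2 on 12:12, with 14 of 15 above the 12:12 median and a difference of 0.94 ± 0.21 (adjusted p = 0.000829).

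The other 7 were mt-Nd1 (0.57 ± 0.15, adjusted p = 0.00514), mt-Nd5 (0.58, 0.0116), mt-Nd4 (0.64, 0.0175), mt-Nd4l (2.04 ± 0.50, 0.00247), mt-Co2 (0.50, 0.00357), mt-Atp6 (0.60, 0.00219) and mt-Tw (0.40, 0.0236). mt-Nd4l rests on few reads, 37 counts in 13 of 15 libraries on 11:11 against 8 counts in 7 of 16 on 12:12. The best counted genes did not pass: mt-Rnr1 was at 0.23 (adjusted p = 0.347), mt-Rnr2 at 0.21 (0.283) and mt-Co1 at 0.18 (0.269). mt-Nd6 and mt-Nd2 passed in all 4 fits that left out a replicate number, whose counts ran from 3 to 11 genes. Without the library richest in mitochondrial counts, mt-Tw (0.24, adjusted p = 0.149) and mt-Nd4 (0.51, 0.0615) did not pass.

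Relative to the summed counts of the plus-strand protein genes of the same libraries, mt-Nd6 was also low in CLAMS males. Per 100 counts of plus-strand protein genes it had 0.317, 0.768 and 3.24 counts in CLAMS males on 11:11 and 0.229, 0.373 and 1.16 on 12:12. CLAMS females had 1.06, 1.31 and 1.87, RW females 0.206, 1.5 and 1.91, RW males 0.511, 1.34 and 4.94, and the atlas 0.992, 1.23 and 2.15. CLAMS males were thus lowest in the median, and the ranges overlapped. The sum is led by mt-Co1 (21413826 of 39068935 counts at ZT6), which was not called by sex in CLAMS. Other complex I genes were lower in CLAMS males too, among them mt-Nd2 (log2 difference -1.94), mt-Nd4 (-1.15) and mt-Nd5 (-1.09). A low share is thus not particular to mt-Nd6. Other measures moved with light cycle in the same males: the nuclear rRNA share had medians of 1.21% on 11:11 and 3.08% on 12:12, and the blood markers 149.9 and 220.0 CPM. The astrocyte, microglia and oligodendrocyte markers were higher on 11:11, with medians of 769.1, 150.8 and 5859.5 CPM against 658.5, 129.3 and 5052 on 12:12. The part of these cells in the result was not tested. With the nuclear rRNA share as a covariate 12 genes were called in CLAMS males. That fit had the same slope for all groups, so it may not adjust these males, and nothing is concluded from it. The log2 correlation of mt-Nd6 with the share was -0.64 in CLAMS males on 12:12, -0.40 on 11:11 and 0.40 in RW females on 11:11. None of the 8 groups passed (permutation test, lowest adjusted p = 0.0611).

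CLAMS females had 1 gene lower on 11:11 and 0 higher (beside 12.3% of all genes called, 6.69% higher and 5.62% lower). mt-Tp had 2.75, 4.74 and 8.29 CPM on 11:11 (n = 16) and 5.12, 6.11 and 9.40 on 12:12 (n = 16), with 13 of 16 below the 12:12 median and overlapping ranges. The difference was -0.43 ± 0.12 (adjusted p = 0.0106), and it did not pass without replicate 2 (0.123). The effect differed between CLAMS males and females for 2 genes (beside 3.91% of all genes, 2.28% higher and 1.63% lower), mt-Nd6 by 1.34 ± 0.27 (adjusted p = 0.00157) and mt-Tp by 0.60 ± 0.17 (0.0313). mt-Nd6 passed in all 4 fits without a replicate number and mt-Tp in 1. RW females (beside 0.276% of all genes) and RW males (beside 0%) had 0 genes called in edgeR and 0 in DESeq2. At an unadjusted p under 0.05 they had 1 and 0 (of 1886 and 749 over all genes). Without the expression filter 6 and 2 were called (of 274 and 108 over all genes). Markers of other cells also moved with light cycle in CLAMS females, with medians on 11:11 and 12:12 of 78.1 and 103 CPM for blood, 118.8 and 135.5 for microglia, and 647.1 and 716.4 for astrocytes. Their part in the result was not tested.

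**Figure D4:**
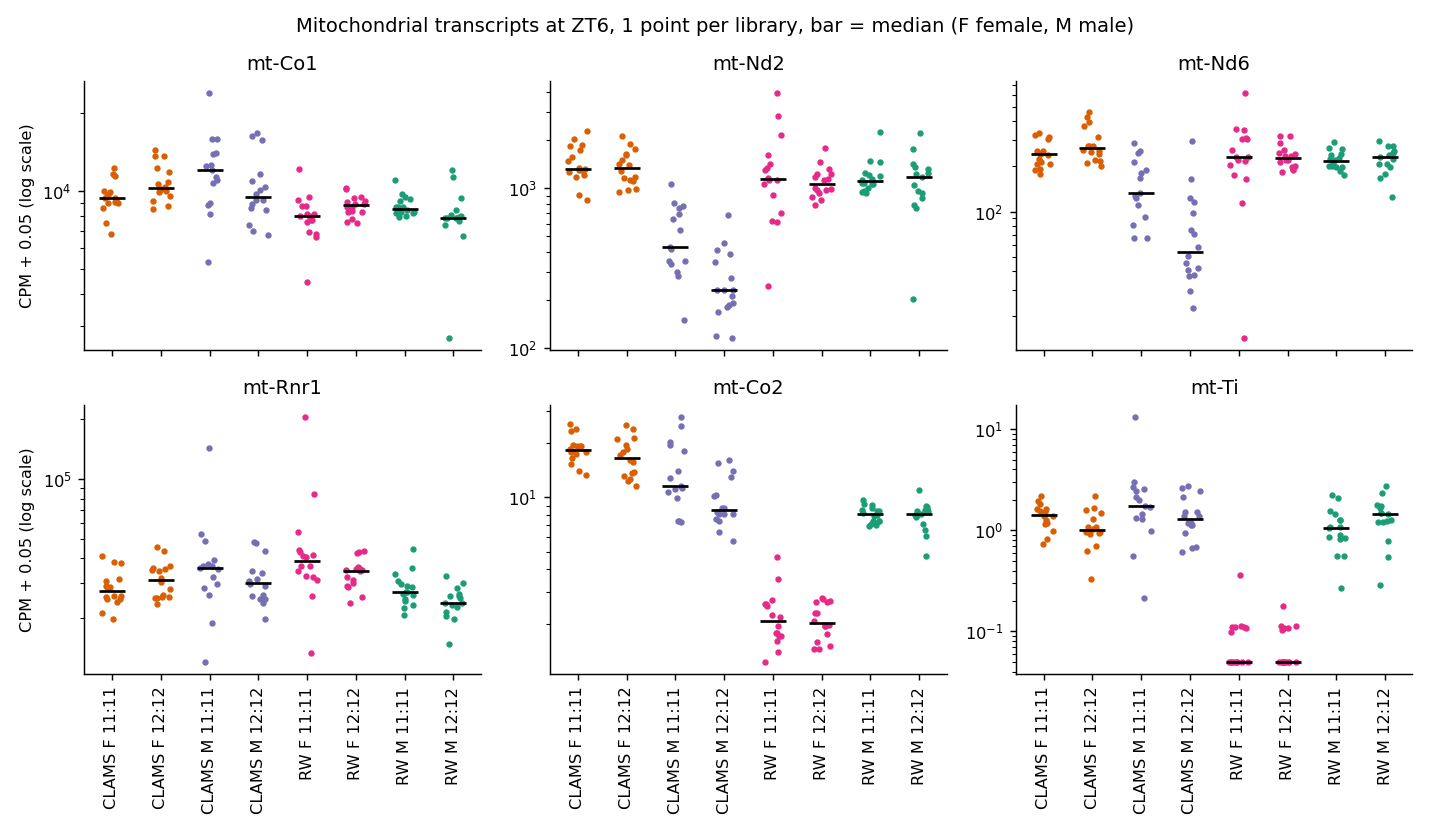
CPM plus 0.05 on a log scale for mt-Co1, mt-Nd2, mt-Nd6, mt-Rnr1, mt-Co2 and mt-Ti at ZT6 by set, sex and light cycle; each point is 1 mouse and bars are medians. mt-Nd6 has its lowest median, 54.0 CPM, in CLAMS males on 12:12, and the mt-Co2 points of RW females (median 1.97 CPM over both light cycles) lie below those of every other group.

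CLAMS and RW differed in 17 of 22 genes, beside 62.2% of all genes called. In CLAMS 12 were higher (beside 29.3% of all genes) and 5 lower (beside 32.9%). The larger differences were in genes whose reads can match the chromosome 1 copy and in 2 tRNAs: mt-Co2 1.80 ± 0.07 (adjusted p = 1.15e-43), mt-Co3 1.77 ± 0.07 (1.91e-44), mt-Atp6 1.74, mt-Nd3 1.81, mt-Ti 2.89 and mt-Tm 2.56. The fitted values of mt-Ti and mt-Tm rest on RW females with at most 2 and 4 counts per library, so their size is uncertain. Of the rest, mt-Tw was higher by 0.94, mt-Tp by 0.41, mt-Co1 by 0.33, mt-Rnr2 by 0.25, mt-Cytb by 0.23 and mt-Tq by 0.22. These are averages over the sexes, and mt-Tq, mt-Rnr2 and mt-Cytb were not higher in both. For mt-Tq, 25 of 32 CLAMS females lay below the RW female median and 26 of 31 CLAMS males above the RW male median. For mt-Rnr2, 17 of 32 females lay below and 27 of 31 males above. For mt-Cytb, 32 of 32 females lay above, while 16 of 31 males lay below. The larger differences were uneven by sex too. For mt-Atp6 and mt-Ti all 32 CLAMS females lay above the RW female median, but 18 and 20 of 31 males above the RW male median. For mt-Co2, mt-Tm, mt-Nd3 and mt-Co3 it was again all 32 females, and 24, 25, 29 and 31 of 31 males.

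mt-Co2 had 11.5, 17.8 and 25.5 CPM in CLAMS females (n = 32), 5.66, 10.3 and 27.8 in CLAMS males (n = 31), 1.18, 1.97 and 4.62 in RW females (n = 32) and 4.68, 8.00 and 11.0 in RW males (n = 31). RW females did not overlap with any other group. mt-Ti had 0.281, 1.17 and 2.16 CPM in CLAMS females, 0.166, 1.39 and 13.1 in CLAMS males, 0, 0 and 0.308 in RW females and 0.220, 1.20 and 2.68 in RW males. In counts it was 15 in 13 of 32 RW females against 705 in 31 of 31 RW males, and the range of RW females overlapped the low end of the others. Between CLAMS and RW females 6 of 22 genes did not overlap (mt-Tm, mt-Tw, mt-Co2, mt-Atp6, mt-Co3 and mt-Nd3), between CLAMS and RW males 0, and over both sexes 0. Overlap was not counted over all genes, so these counts show nothing particular to the mitochondrial genes.

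The 5 genes lower in CLAMS were the complex I genes mt-Nd2 (-0.72 ± 0.10), mt-Nd4 (-0.39), mt-Nd5 (-0.39) and mt-Nd6 (-0.46), and mt-Tt (-0.40, adjusted p = 0.0463). mt-Nd2 had 848.4, 1327 and 2287 CPM in CLAMS females, 115.9, 346.0 and 1057 in CLAMS males, 243.5, 1132 and 3921 in RW females and 203.5, 1124 and 2239 in RW males. CLAMS males were low and the other 3 groups were alike in the median: 0 of 31 CLAMS males lay above the RW male median, against 25 of 32 CLAMS females above the RW female median. mt-Tt did not pass without the rRNA-rich library (-0.38, adjusted p = 0.061) or without the library richest in mitochondrial counts (-0.38, 0.0538). The directions differed by sex for the other 4 too: 28 of 32 CLAMS females lay above the RW female median for mt-Nd4, 24 for mt-Nd5, 21 for mt-Nd6 and 21 for mt-Tt, while 30, 29, 27 and 26 of 31 CLAMS males lay below the RW male median. mt-Rnr1 (-0.01 ± 0.08) and mt-Nd1 (-0.03 ± 0.07) did not pass, as averages over sexes that went opposite ways. For mt-Nd1, 31 of 32 CLAMS females lay above the RW female median and 26 of 31 CLAMS males below the RW male median. For mt-Rnr1, 24 of 32 females lay below and 24 of 31 males above. With the nuclear rRNA share as a covariate mt-Tq (0.16, adjusted p = 0.0803) and mt-Cytb (0.16, 0.0552) did not pass.

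Males and females at ZT6 differed in 15 of 22 genes (beside 58.1% of all genes; 8 higher in males beside 27.6%, 7 lower beside 30.5%), but the sets went different ways. Without the rRNA-rich library the lower mt-Rnr1 in males did not pass (-0.14, adjusted p = 0.0771). The test of the difference of the sex effect between sets called 19 of 22 genes (beside 51.8%; 5 higher beside 22.7% and 14 lower beside 29.1%). mt-Co1, mt-Tw and mt-Tp did not pass it. With the nuclear rRNA share as a covariate 3 of the 5 higher genes did not pass either: mt-Rnr1 went from 0.76 to 0.04 (adjusted p = 0.919), mt-Rnr2 from 0.53 to 0.10 (0.736), and mt-Ty was at 1.77 (0.107). In CLAMS 19 genes differed by sex (beside 63.1%), 8 higher in males (beside 29%) and 11 lower (beside 34.1%). In RW 13 differed (beside 33.8%), 9 higher in males (beside 17.9%) and 4 lower (beside 15.9%).

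In CLAMS 10 protein genes were lower in males, 7 of complex I and mt-Co2 (-0.64), mt-Atp6 (-0.82) and mt-Cytb (-0.32). mt-Nd2 differed by -1.94 ± 0.15 (adjusted p = 1.67e-21), with 0 of 31 males above the female median. mt-Nd6 had 179.5, 251.4 and 464.8 CPM in females and 22.6, 97.5 and 294.5 in males, a difference of -1.31, and the ranges overlapped. mt-Nd4 had -1.15, mt-Nd5 -1.09, mt-Nd1 -0.83, mt-Nd3 -0.39 and mt-Nd4l -3.34, the last on 45 counts in males against 399 in females. Most tRNAs went the other way: mt-Tm 1.44, mt-Ty 1.02, mt-Tq 0.62, mt-Te 0.62, mt-Ti 0.42, mt-Tw 0.35 and mt-Tp 0.22, while mt-Tt had -1.24. The size for mt-Ty is uncertain, as it rests on few reads. It had 159 counts in 23 of 31 males (at most 26 in a library) and 86 in 28 of 32 females (at most 8). mt-Rnr2 was higher in males by 0.26. mt-Ti did not pass without the library richest in mitochondrial counts (0.30, adjusted p = 0.0985). Of the 19 genes, 13 passed in all 4 fits that left out a replicate number. mt-Cytb passed in 3, mt-Rnr2, mt-Ti, mt-Nd3 and mt-Tp in 2 and mt-Ty in 1. With the nuclear rRNA share as a covariate mt-Rnr2, mt-Ti, mt-Tm, mt-Ty and mt-Tp did not pass.

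In RW the genes tested inside the copied stretch were higher in males: mt-Co2 by 1.94 ± 0.11 (adjusted p = 1.48e-30, 31 of 31 males above the female median), mt-Atp6 by 1.91, mt-Co3 by 1.43, mt-Nd3 by 1.34 and mt-Nd4l by 1.35. The size for mt-Nd4l is uncertain, with 63 counts in RW females and 179 in RW males. mt-Tw was higher by 0.61 and mt-Nd1 by 0.26. mt-Ti and mt-Tm were also called higher, with fitted values of 5.28 and 3.54. RW females had 15 counts of mt-Ti and 54 of mt-Tm in all, against 705 and 726 in RW males, so both genes passed the filter through the other groups and the size of these differences is uncertain. mt-Nd1 did not pass without the library that goes against its label (0.24, adjusted p = 0.0677). The genes lower in males were mt-Rnr1 (-0.58), mt-Rnr2 (-0.28), mt-Tq (-0.26) and mt-Te (-1.12). Of the 13 genes called in RW, 10 passed in all 4 fits that left out a replicate number. mt-Rnr2 passed in 3, and mt-Nd1 and mt-Tq in 1 each. Of the complex I genes low in CLAMS males, mt-Nd2 was at -0.04 ± 0.14 in RW, mt-Nd5 at -0.13 ± 0.12 and mt-Nd6 at -0.11 ± 0.14. The ranges of 2 genes did not overlap between RW males and females, mt-Tm and mt-Co2. The share of all genes without overlap was not counted here either. With the nuclear rRNA share as a covariate mt-Rnr1, mt-Rnr2 and mt-Tq did not pass. That share had medians of 0.325% in CLAMS females, 2.02% in CLAMS males, 0.627% in RW females and 0.157% in RW males.

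**Figure D5:**
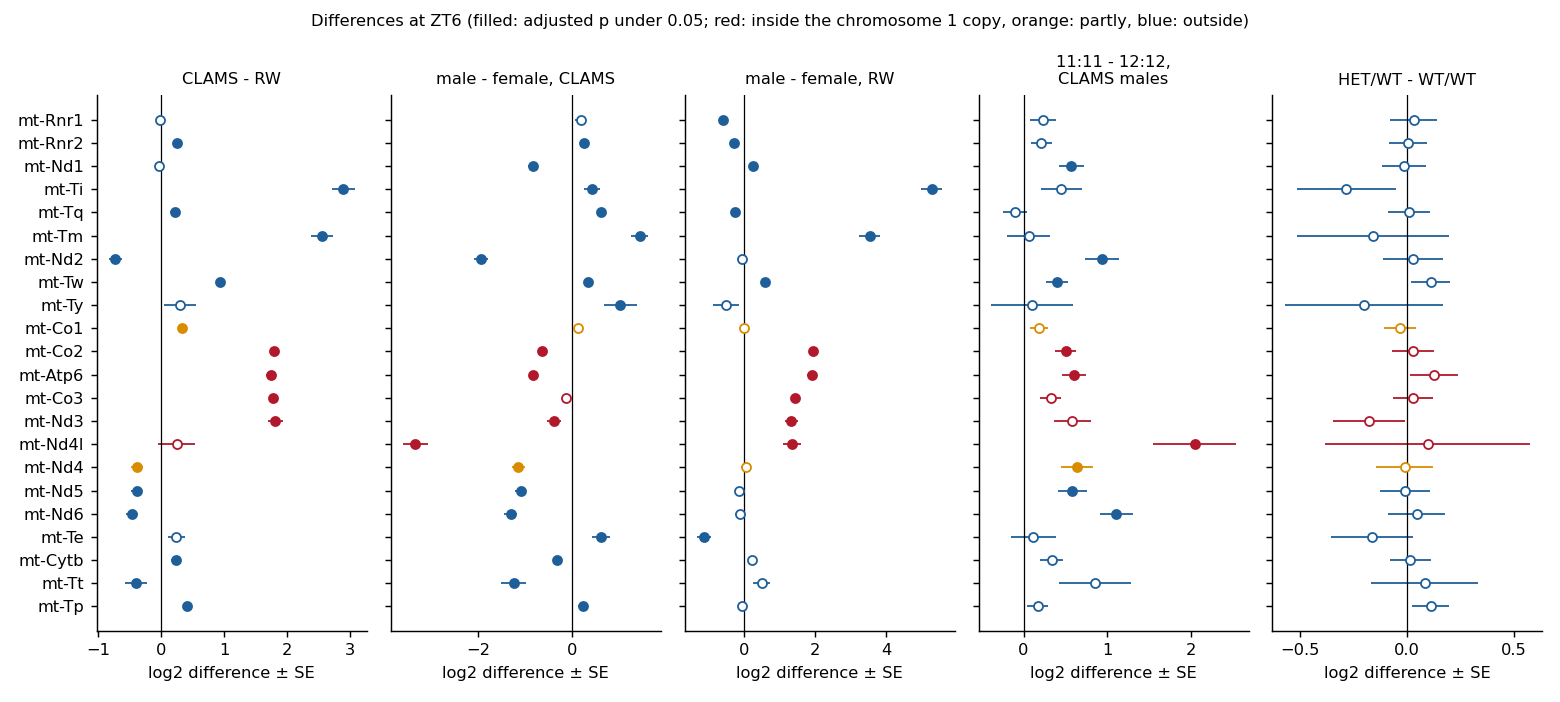
Log2 difference with its SE (lines) of each mitochondrial gene tested at ZT6 for CLAMS minus RW, males minus females in each set, 11:11 minus 12:12 in CLAMS males, and HET/WT minus WT/WT; filled points have an adjusted p under 0.05. The columns hold 17, 19, 13, 9 and 0 filled points.

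The nuclear genes that copy, transcribe and process mitochondrial DNA and RNA were read from the same fits, as 38 genes tested. In the atlas 9 had a rhythm, beside 41.4% of all genes tested. They were led by Esrra (log2 peak-to-trough difference 0.20, peak at ZT15.8) and Gabpa (0.20, ZT21.3), transcription factors of nuclear genes for respiration. Also called were Fastkd5 (0.41, ZT19.0), a mitochondrial RNA processing factor, and Ppargc1b (0.18, ZT15.4), a coactivator. By sex 8 differed in the atlas (beside 41.1% of all genes), 5 higher in males (beside 21%) and 3 lower (beside 20.1%). Ppargc1a, a coactivator of mitochondrial biogenesis, was higher by 0.19 ± 0.02 and Tfam, which packages mitochondrial DNA, by 0.11. Mterf2 was lower by a log2 difference of -0.17, and Grsf1, of mitochondrial RNA granules, was higher by 0.06.

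At ZT6 none of the 38 was called for HET/WT, beside 0.0425% of all genes. The smallest p was for Hsd17b10, a subunit of the enzyme that trims tRNA 5′ ends, at 0.16 ± 0.05 (adjusted p = 0.462). The light cycle called 4 of 38 (beside 12.6%), Ppargc1a (0.09), Ppargc1b (0.09), Tfb1m (-0.21) and Fastk (-0.08). In CLAMS males it called 5 (beside 13.5%). They were led by Pnpt1, a mitochondrial RNA exonuclease (0.26, adjusted p = 0.00597), Elac2, which cuts tRNA 3′ ends (-0.18), Twnk, the DNA helicase (-0.24), and Gabpa (0.20). Set called 24 (beside 62.2%), 14 higher in CLAMS (beside 29.3%) and 10 lower (beside 32.9%). Slirp, which with Lrpprc stabilises mitochondrial messenger RNAs, was higher by 1.25 ± 0.04 (adjusted p = 3.75e-51), Hsd17b10 by 0.35 and Fastkd2 by 0.26, and Ppargc1b was at -0.31. Sex at ZT6 called 21 (beside 58.1%), 13 higher in males (beside 27.6%) and 8 lower (beside 30.5%). Slirp was at 1.07, Esrra at 0.29, Hsd17b10 at 0.32 and Lrpprc at -0.21. Each share is that of all genes called in the same comparison.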

How the data were processed

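The deposited values are raw counts per gene identifier, in 1 table for the atlas and 1 for ZT6, with 55487 identifiers each. Per the submitters' processing notes the authors used Trim Galore, STAR, SAMtools and limma with mm10. Not given in the sources used here were the versions, counter, annotation release, strand setting and treatment of reads that match several places. Gene names, classes and strands came from GENCODE mouse release 21, which held 55227 of the identifiers. Groups came from the labels, whose replicates are separate mice; 1 of 219 samples had no column and was not analysed here.

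All genes passing filterByExpr were fitted with edgeR 4.0.16 (R 4.3.3; TMM scaling, quasi-likelihood test, robust dispersion), p-values adjusted by Benjamini-Hochberg across every gene in the fit, and a call at 0.05. Atlas models held sex and a 24 h cosine and sine. ZT6 models held 1 mean per group of set, sex, light cycle and genotype, and contrasts averaged the other factors equally. Log2 differences carry SEs from the fit; CPM uses TMM-scaled library sizes. Nuclear copies were aligned with BLAST 2.17.0 (at least 100 bases and 90% identity). The scripts were tested on simulated counts. No 2 libraries were identical.

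Alternatives were DESeq2 1.42.0, RLE scaling, scaling on nuclear genes, no expression filter, a replicate block, time as 8 levels, fits per set, leaving out each replicate number and leaving out single libraries. The nuclear rRNA covariate, the fits without the library richest in mitochondrial counts, the sex contrasts within sets, the difference of the sex effect between sets and the light cycle difference between CLAMS males and females were added after seeing the data. The members and lists were chosen with earlier results of these data known. Every gene with the mt- prefix was accounted for; of the nuclear machinery genes, up to 4 called members of smallest p were named per comparison (1 where none was called), and of the nuclear copies the 3 with most counts, beside those that match a gene described. The summed level of the cortical projection neuron markers is not reported here.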

Additional observations from a re-analysis of the deposited data

Results flagged for a closer look

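Single libraries stood far from the other mice of their group in 15 of 138 group tests over 3 measures, where chance alone gives 6.9. The share of counts from mitochondrial protein genes was 2.58% in RW male 12:12 HET/TG replicate 4, 2.06% in atlas female ZT6 replicate 1 and 1.71% in atlas male ZT3 replicate 1. The mitochondrial rRNA share was 9.28% in CLAMS female 11:11 HET/WT replicate 1, 9.67% in CLAMS female 12:12 HET/WT replicate 1, 14.4% in CLAMS male 12:12 WT/TG replicate 2, 8.64% in RW female 12:12 WT/WT replicate 1 and 12.6% in RW male 11:11 WT/WT replicate 2. In the atlas it was 16.7% in female ZT0 replicate 1 and 19.5% in female ZT6 replicate 4. mt-Nd6 per 100 plus-strand protein counts was 1.38 in CLAMS female 11:11 WT/WT replicate 2, 0.582 in CLAMS male 12:12 HET/TG replicate 4, 1.38 in atlas female ZT3 replicate 5, 1.90 in atlas female ZT6 replicate 1 and 2.15 in atlas male ZT15 replicate 3.

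Effects that differed between groups by a test of the difference came from 3 contrasts. The light cycle effect differed between sets for mt-Nd4l (1.22), and between CLAMS males and females for mt-Nd6 (1.34) and mt-Tp (0.60). The sex effect in CLAMS minus that in RW was positive for mt-Rnr1 (0.76), mt-Rnr2 (0.53), mt-Tq (0.88), mt-Ty (1.52) and mt-Te (1.74). Of these, mt-Rnr1 (0.04), mt-Rnr2 (0.10) and mt-Ty (1.77) did not pass with the nuclear rRNA share as a covariate. mt-Ty, with few reads, passed in 1 of the 4 fits that left out a replicate number. The difference was negative for the complex I genes mt-Nd1 (-1.09), mt-Nd2 (-1.89), mt-Nd3 (-1.73), mt-Nd4l (-4.68), mt-Nd4 (-1.21), mt-Nd5 (-0.96) and mt-Nd6 (-1.20), for mt-Co2 (-2.57), mt-Co3 (-1.56), mt-Atp6 (-2.73) and mt-Cytb (-0.55), and for the tRNAs mt-Ti (-4.85), mt-Tm (-2.11) and mt-Tt (-1.75). The sizes for mt-Nd4l, mt-Ti and mt-Tm are uncertain, as they rest on groups with few reads. mt-Nd4l had 45 counts in 31 CLAMS males and 63 in 32 RW females. In the same RW females mt-Ti had 15 and mt-Tm 54.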

How the results depend on the processing

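Without the expression filter the number of mitochondrial genes called was 4 for the rhythm, 2 for HET/TG, 1 for HET/TG against HET/WT, 9 for HET/WT on 11:11, 8 on 12:12 and 10 for their difference. For light cycle it was 10 over all ZT6 libraries, 11 in CLAMS, 6 in RW, 8 for the difference between sets, 5 in CLAMS females, 14 in CLAMS males, 6 in RW females and 2 in RW males. Over all genes the same unfiltered fits called 6738 for the rhythm, 84, 119, 126, 96 and 106 for the genotype comparisons in that order, and 2144, 3387, 208, 1250, 2124, 2636, 274 and 108 for light cycle. The cause was not tested. Time as 8 levels called 3. For light cycle at ZT6, DESeq2 called 5, the fit without the library against its label 5, CLAMS alone 6 and RW alone 0; with the nuclear rRNA covariate the difference between sets called 0. Sex at ZT6 reversed in the CLAMS libraries alone for mt-Rnr1 (0.18), mt-Co2 (-0.64), mt-Atp6 (-0.82), mt-Co3 (-0.14) and mt-Nd3 (-0.40), and in the RW libraries alone for mt-Nd1 (0.26), mt-Tq (-0.26) and mt-Nd4 (0.058). With each replicate number left out, counts ran from 2 to 7 for the rhythm, 11 to 14 for atlas sex, 0 to 6 for light cycle at ZT6, 1 to 8 in CLAMS, 0 to 1 in CLAMS females, 3 to 11 in CLAMS males, 0 to 1 for the difference between sets, 16 to 17 for set and 13 to 15 for sex at ZT6; genotype, RW and sex difference in rhythm gave 0 to 0.

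Replicate numbers were not treated as pairs, as the labels give separate mice. The correlation of same-numbered libraries ran from -0.401 to 0.420 in the atlas (mean 0.00581) and from -0.456 to 0.416 at ZT6 (mean 0.0128). Libraries of other numbers had slightly lower means, -0.000846 and -0.00421. In these data 24 of 92 and 45 of 126 libraries correlated best with their own number. These counts were not tested against chance, so some sharing by number remains possible. With the replicate block 124 of 126 called genes passed again, with 9 called for the rhythm, 4 for light cycle, 9 in CLAMS males and 16 for set; mt-Nd5 in the rhythm (0.15, adjusted p = 0.0542) and mt-Tt for set (-0.39, 0.0522) did not. The sparse tRNAs and the genes inside the chromosome 1 copy have few counts, which limits their precision.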
